A study of Mus musculus with 8 samples.

Results

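The genes described here make cholesterol and fatty acids in the cell. The set was a named list of 32 mouse genes, chosen by what their products do: the enzymes that run from acetyl-CoA to cholesterol, the regulators of that route, and the enzymes that build, desaturate and lengthen fatty acids. Of the 32, 29 were measured, among 17097 genes in all. The other 3 (Acat2, Srebf1 and Scd2) had no probe set carrying a single gene symbol in the annotation used and were not analysed here. The samples were dermal fibroblasts of C57Bl/6 males, from 4 young mice aged 2 months and 4 old mice aged 18 months, with 1 expression array for each mouse; the labels name no transgene or treatment. Skin was freed of subdermis and digested with collagenase, and cells were sorted as CD45-, CD117-, CD24-, CD31-, EpCam-, Pdgfra+ and CD34+, a gate set on surface proteins. RNA of 5000 cells for each mouse was amplified through 21 cycles before labelling. Mice are numbered 1 to 4 within an age. The sample titles carry numbers in 2 unbroken runs, mice 1 and 2 of each age in the first and mice 3 and 4 in the second, and the labels do not say what a run stands for. The comparison asks how the transcripts of dermal fibroblasts differ between young and old mice.

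Cholesterol is built from acetyl-CoA through mevalonate and isoprenoid intermediates to squalene, which is closed into a ring and trimmed to cholesterol. When sterol in the endoplasmic reticulum is low, Scap carries the SREBP transcription factors to the Golgi, where they are cut and freed to switch on these genes; when sterol is high, Insig proteins hold Scap back. Fatty acids start from the same acetyl-CoA, and skin is a tissue where lipid synthesis is best known in sebaceous glands and keratinocytes, while fibroblasts make lipid for their own membranes.

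None of the 29 measured genes passed the limma test between old and young mice (adjusted p under 0.05 by Benjamini-Hochberg over all genes). Of all 17097 genes, 3.97% passed: 1.82% were higher and 2.15% lower in the old mice. At an unadjusted p under 0.05 there were 5 of the 29 genes, against 15.1% of all genes. Idi1, Insig1 and Elovl5 were higher in old mice among these 5, and Me1 and Elovl6 were lower. The 4 old and 4 young values did not overlap for 2 of the 29, Elovl5 and Me1, against 9.7% of all genes. Differences are given as old minus young on the deposited log2 scale, where a difference of 1 is 2.00-fold. They were above 0 for 15 genes and below 0 for 14, from -0.86 for Elovl6 to 0.42 for Cyp51. Of all 17097 genes, 9190 were above 0 and 7907 below. The median of the 29 differences was 0.04, beside 0.01 for all genes. The size of the difference, whichever its direction, had a median of 0.17 in the 29 genes and 0.08 in all genes. Without genes dim in both ages (level given below), the medians were 0.205 in 24 of the 29 and 0.12 in 10757 genes. In a sorted bulk sample, fewer cells of a type and less RNA for each cell cannot be told apart.

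**Figure D1:**
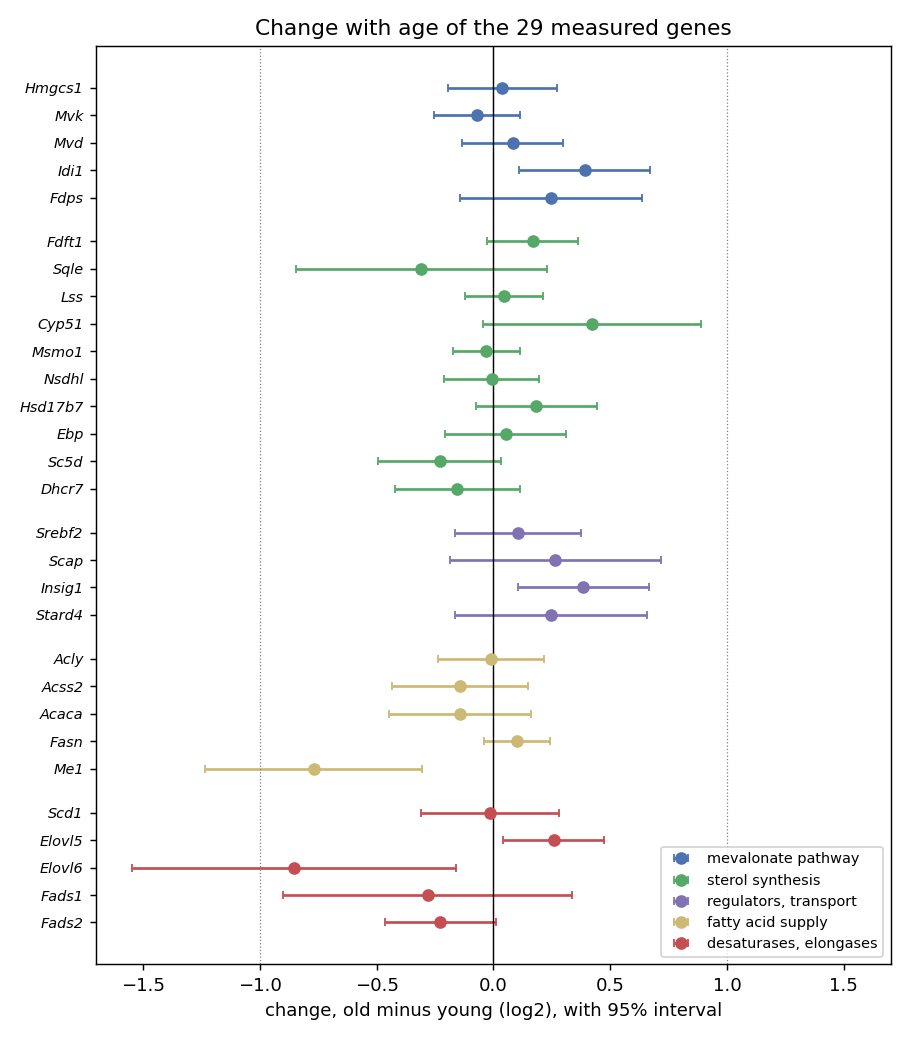
Difference between old and young mice for each of the 29 genes (log2, horizontal axis), grouped and coloured by role, with a 95% interval from limma around each point and dotted lines at 2.00-fold. The intervals of Me1, Elovl6, Idi1, Insig1 and Elovl5 lie clear of 0, yet no gene passed after adjustment over all genes.

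The precision allowed by 4 mice of each age set what these values can show. The standard error of the difference had a median of 0.12 over the 29 genes, against 0.09 over all genes. It ran from 0.06 to 0.31 in the 29. The 95% interval lay within 1 log2 unit of 0 for 27 genes, the exceptions being Me1 and Elovl6. It lay within 0.5, or 1.41-fold, for 19.

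Arrays were alike in scale, with medians of 5.06 to 5.14, and the dim level was set at the median of all probe set means, 5.10. Hmgcs1, Sqle, Lss, Msmo1 and Acss2 were below it in both ages, and Idi1 and Stard4 had a young mean below it and an old mean above it; the 23 non-specific controls had a median of 3.91 and single values up to 7.20. The fibroblast markers summed to 14.67 to 14.74 in young and 14.61 to 14.67 in old mice, each sum being the log2 of the added linear values, and 7 of the 8 were above the dim level in at least 1 age. The exception was Pdgfra, used in the sort, at 5.06 in young and 4.47 in old mice (limma adjusted p 0.0808). Thy1, a fibroblast surface protein, fell by 0.61 ± 0.07 (SE, limma adjusted p 0.00176). Cd34, also used in the sort, was at 10.815 in young and 11.01 in old mice without overlap (limma adjusted p 0.129). Of the 8 fibroblast markers, 3 had a difference above 0 and 5 below. In the limma test 4 of the 8 had an unadjusted p under 0.05, against 15.1% of all genes. Of these 4, 1 was higher and 3 were lower in old mice. Endothelial, mural, immune, adipocyte and erythrocyte marker lists had no member past the limma test, and 1 marker of the 5 lists, endothelial Kdr, had an unadjusted p under 0.05. The brightest of these lists were Pecam1, Acta2, Csf1r, Retn and Hba-a2, and Col1a1 of the fibroblast list. Csf1r was at 8.85 in young and 8.82 in old mice, and Hba-a2 at 11.02 and 10.975. The age means of Pecam1, Acta2 and Retn ran from 5.64 to 6.555.

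The starts of these genes were searched for the letters that the route's known regulators bind, since SREBP factors act together with NF-Y and Sp1 at sterol-responsive promoters. RefSeq windows (GRCm38.p6, 250 bases before to 50 after the annotated start) were at hand for 23 of the 29 measured genes, 27 windows in all, since 3 genes have several. The sterol element TCACNCCAC, read on both strands, was found in 1 of the 27 windows (Hmgcs1), or 3.7%, against 1.24% of 32851 windows of all genes. The looser TCACNCCA, held by every match of the first, was in 3 (Hmgcs1, Msmo1 and Srebf2), 11.1% against 4.36%. CCAAT, the NF-Y box, was in 19 windows (70.4% against 37.4%), and GGGCGG, the Sp1 box, in 21 (77.8% against 35.7%). A match is only a description. Shown are the 150 bases before the start for the gene with the sterol element and for the 5 genes at an unadjusted p under 0.05, with the matched letters in capitals on either strand (ATTGG and CCGCCC are the reverse complements of CCAAT and GGGCGG):
Hmgcs1 (chr13:119690201-119690350, plus strand): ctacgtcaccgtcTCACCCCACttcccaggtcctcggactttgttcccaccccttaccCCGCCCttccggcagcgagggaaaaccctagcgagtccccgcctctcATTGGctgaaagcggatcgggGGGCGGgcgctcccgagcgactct
Idi1 (chr13:8885456-8885605, plus strand): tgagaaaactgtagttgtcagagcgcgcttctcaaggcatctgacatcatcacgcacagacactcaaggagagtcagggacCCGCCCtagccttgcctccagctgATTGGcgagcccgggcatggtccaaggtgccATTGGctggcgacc
Insig1 (chr5:28071262-28071411, plus strand): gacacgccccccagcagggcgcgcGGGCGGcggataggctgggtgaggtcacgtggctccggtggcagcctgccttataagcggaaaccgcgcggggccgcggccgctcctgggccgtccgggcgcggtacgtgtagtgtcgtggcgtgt
Elovl5 (chr9:77917215-77917364, plus strand): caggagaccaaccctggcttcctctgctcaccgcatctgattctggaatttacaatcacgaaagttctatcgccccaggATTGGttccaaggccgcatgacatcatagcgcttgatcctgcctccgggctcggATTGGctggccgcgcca
Me1 (chr9:86695915-86696064, minus strand): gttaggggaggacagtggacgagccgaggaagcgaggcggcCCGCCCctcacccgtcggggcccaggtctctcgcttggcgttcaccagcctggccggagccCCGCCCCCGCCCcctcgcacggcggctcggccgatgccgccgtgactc
Elovl6 (chr3:129532236-129532385, plus strand): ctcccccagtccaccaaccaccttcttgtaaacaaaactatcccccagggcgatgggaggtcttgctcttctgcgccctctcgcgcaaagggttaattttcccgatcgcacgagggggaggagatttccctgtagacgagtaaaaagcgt
Each is written 5′ to 3′ along the gene. Idi1 and Elovl5 each held CCAAT 2 times, Idi1 and Insig1 held GGGCGG once, and the Elovl6 stretch held none of the letters searched. Me1 has a further annotated start with no match in the stretch before it. No match says only that these letters are not in the stretch.

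Mevalonate enzymes make the isoprenoid precursors. Of the 5 measured, 0 passed (limma), 4 had a difference above 0, and the median was 0.08. Idi1 interconverts the isoprenoid building blocks. Its level was 4.67, 4.96, 4.82 and 4.48 in the young mice and 5.19, 4.93, 5.37 and 5.0 in the old mice, and the only overlap was old mouse 2 lying below young mouse 2. The difference was 0.39 ± 0.13 (SE, limma, 1.31-fold, unadjusted p 0.0118, adjusted p 0.144), with all 4 young values below the dim level, and a further probe set, dim in both ages, gave 0.18. Fdps, which joins isoprenoids into farnesyl diphosphate, was 6.36, 6.32, 6.20 and 6.09 in young and 6.33, 6.70, 6.91 and 6.01 in old mice. Its groups overlapped, with old mouse 4 lowest of all 8 and old mouse 3 highest (difference 0.25 ± 0.17, which was 0.10 without old mouse 3 and 0.40 without old mouse 4). Hmgcs1, which makes HMG-CoA, stood at 4.14 ± 0.11 (SD, n = 4) in young and 4.18 ± 0.19 in old mice, both dim. Mvk, the mevalonate kinase, differed by -0.07 ± 0.08 and Mvd, which decarboxylates mevalonate diphosphate, by 0.08 ± 0.10, with 0.18 in a second probe set.

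Of the 10 sterol enzymes from squalene to cholesterol, 0 passed the limma test and none had an unadjusted p under 0.05; 5 had a difference above 0 and 5 below, and the median was 0.02. Cyp51, the lanosterol demethylase, had the widest difference above 0 in the brightest probe sets. It was 8.21, 8.45, 8.51 and 7.62 in young and 8.76, 8.40, 8.98 and 8.34 in old mice. Young mouse 4 was the lowest and old mouse 3 the highest, and the groups overlapped (0.42 ± 0.21, limma adjusted p 0.390); without young mouse 4 the difference was 0.23. Its further probe sets, both dim, gave 0.04 and 0.105, and the mean of all its probe sets 0.19. Sqle, the squalene epoxidase, had the widest difference below 0, from 4.42, 5.04, 5.28 and 4.26 in young to 4.39, 4.31, 4.91 and 4.15 in old mice (-0.31 ± 0.24, which was -0.13 without young mouse 3 and -0.47 without young mouse 4). These dim values overlapped. Sc5d, the lathosterol desaturase, was 6.77, 6.97, 6.99 and 6.90 in young and 6.47, 6.51, 7.0 and 6.73 in old mice. Its difference of -0.23 ± 0.12 stood at a limma adjusted p of 0.417, with old mouse 3 highest of all. Its further probe sets gave -0.36 and -0.20.

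Of the 7 others, Hsd17b7, a 3-ketosteroid reductase, differed by 0.18 ± 0.12 (0.28 without old mouse 3), and its further probe sets by 0.165 and 0.15. Fdft1, squalene synthase, differed by 0.17 ± 0.09. Dhcr7, which reduces dehydrocholesterol to cholesterol, differed by -0.16 ± 0.12, by -0.25 without old mouse 3 and by -0.10 without young mouse 4. Ebp, the sterol isomerase, was 8.36, 8.38, 8.40 and 8.12 in young and 8.09, 8.30, 8.59 and 8.49 in old mice. The old values straddled the young ones, and the difference of 0.05 ± 0.12 was -0.02 without old mouse 3. Lss, which closes squalene epoxide into lanosterol, Msmo1, a sterol methyl oxidase, and Nsdhl, which helps strip methyl groups from the sterol ring, differed by 0.05, -0.03 and -0.01.

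All 4 measured regulators and transporters had a difference above 0, with a median of 0.26, though none passed the limma test and 1 had an unadjusted p under 0.05. Old mouse 3 was the highest of all 8 arrays for 3 of these 4 genes. Insig1, which retains Scap in the endoplasmic reticulum and is itself a target of SREBP, was 8.77, 9.14, 9.11 and 8.78 in young and 9.47, 9.21, 9.54 and 9.12 in old mice. Old mouse 4 lay among the young values and the other 3 old mice lay above all young ones. The difference was 0.39 ± 0.13 (limma, 1.31-fold, unadjusted p 0.0126, adjusted p 0.149). Across the leave-one-out fits it ran from 0.32 to 0.46, and it was 0.39 within each run of title numbers.

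Srebf2, the SREBP that governs cholesterol genes, was 7.39, 7.71, 7.65 and 7.41 in young and 7.42, 7.70, 7.92 and 7.54 in old mice, with overlapping groups. The difference was 0.11 ± 0.12 (0.01 without old mouse 3 and 0.18 without old mouse 1), and a second probe set, less bright, gave -0.12. Scap was 6.06, 5.66, 6.56 and 6.21 in young and 5.99, 6.27, 6.66 and 6.63 in old mice, with overlap (0.27 ± 0.20). Without young mouse 2 the difference in Scap was 0.11, and without young mouse 3 it was 0.41. Within the first run of title numbers it was 0.27, and within the second 0.26. Scap stood higher in the second run than in the first, by 0.525 in young and 0.515 in old mice. With the runs as a block, the standard error was 0.12 (limma adjusted p 0.273). Stard4, which ferries cholesterol through the cytosol, was 5.17, 5.46, 5.19 and 4.48 in young and 5.13, 5.44, 5.41 and 5.31 in old mice. Young mouse 4 alone was apart and the rest overlapped (0.25 ± 0.18, which was 0.05 without young mouse 4 and 0.38 without young mouse 2); further probe sets gave 0.03 and 0.05.

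Among the 5 enzymes that supply and assemble fatty acids, 0 passed the limma test, 4 had a difference below 0, and the median was -0.14. Me1, cytosolic malic enzyme, gives NADPH for fatty acid synthesis. It was 6.98, 7.38, 7.76 and 6.72 in young and 6.14, 6.45, 6.65 and 6.52 in old mice, so each old mouse was below each young one. The difference was -0.77 ± 0.21 (limma, 1.71-fold lower in old mice, 95% interval -1.24 to -0.30, unadjusted p 0.00436, adjusted p 0.0821), the smallest p among the 29. A further probe set, close to the dim level, was 4.93, 5.26, 5.47 and 5.54 in young and 4.74, 4.73, 4.76 and 4.78 in old mice. It did not overlap either, at -0.55.

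Me1 passed in 4 of the other settings: with array weights (adjusted p 0.0334), with dim genes left out (0.0496), with the mean of its probe sets (-0.66, 0.0208) and without young mouse 4 (-0.93, 0.0280). The other 7 leave-one-out fits gave differences from -0.85 to -0.59 and did not pass. Within the first run of title numbers it was -0.89, and within the second -0.66.

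Fasn, the fatty acid synthase, was 8.20, 8.05, 8.13 and 8.12 in young and 8.29, 8.23, 8.21 and 8.17 in old mice. The ranges overlapped at their edges, the difference was 0.10 ± 0.06, and the 95% interval of -0.04 to 0.24 leaves out any change of 1.41-fold. Acly, the ATP citrate lyase that frees cytosolic acetyl-CoA, was 9.21, 9.13, 9.03 and 8.88 in young and 8.85, 8.99, 9.19 and 9.18 in old mice. Its overlapping groups gave -0.01 ± 0.10, but -0.25 within the first run of title numbers and 0.23 within the second. A second probe set, above the dim level, gave 0.14. The interaction of age with run had an unadjusted p of 0.00878 and a limma adjusted p of 0.537, the lowest adjusted p of the 29.

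Acaca, acetyl-CoA carboxylase, was 7.20, 7.20, 7.28 and 7.63 in young and 6.88, 7.14, 7.44 and 7.28 in old mice, with overlap, at -0.14 ± 0.14 (-0.04 without old mouse 1 and -0.23 without old mouse 3). A second probe set was 6.58, 5.96, 6.48 and 6.52 in young and 5.76, 5.91, 6.30 and 5.76 in old mice, at -0.45. Acss2, which makes acetyl-CoA from acetate, differed by -0.15 ± 0.13 at a dim level, by -0.04 without old mouse 1 and by -0.23 without old mouse 3.

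The desaturases and elongases had a median difference of -0.23 over 5 genes, 4 of them below 0; 0 passed the limma test. Elovl6, which lengthens saturated chains, had the widest difference of the 29. It was 7.30, 6.62, 6.85 and 7.19 in young and 5.63, 7.03, 6.36 and 5.52 in old mice. Old mouse 2 lay inside the young range and the other 3 old mice lay below it. The difference was -0.86 ± 0.31 (limma, 1.81-fold lower, unadjusted p 0.0210, adjusted p 0.206), and without old mouse 2 it was -1.15 (adjusted p 0.0394). The 2 further probe sets, both dim, gave -0.19 and -0.16.

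Elovl5, which lengthens polyunsaturated chains, was 10.56, 10.67, 10.61 and 10.62 in young and 10.69, 10.72, 11.05 and 11.03 in old mice. The groups did not overlap, though old mice 1 and 2 lay just above the young range and old mice 3 and 4 well above it. The difference was 0.26 ± 0.10 (limma, unadjusted p 0.0238, adjusted p 0.220), 0.09 within the first run of title numbers and 0.43 within the second. For Elovl5 the interaction of age with run had an unadjusted p of 0.0258 and a limma adjusted p of 0.610. A second probe set was 9.13, 8.94, 9.01 and 8.51 in young and 9.05, 9.23, 9.64 and 9.59 in old mice, at 0.48 with overlap.

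Fads1, the delta-5 desaturase, was 8.99, 9.16, 9.11 and 7.89 in young and 8.29, 8.37, 8.98 and 8.38 in old mice. Young mouse 4 and old mouse 3 each stood apart from their group. The difference was -0.28 ± 0.28 with both, -0.58 without young mouse 4 (limma adjusted p 0.0991) and -0.44 without old mouse 3 (0.527). Within the first run it was -0.75 (adjusted p 0.0420) and within the second 0.18.

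Fads2, the delta-6 desaturase, was 6.62, 7.08, 6.88 and 6.79 in young and 6.49, 6.53, 6.74 and 6.70 in old mice, at -0.23 ± 0.11 with overlap (-0.15 without young mouse 2). Of its further probe sets, one above the dim level gave -0.54, and one dim in both ages gave 0.14, in the opposite direction. Scd1, which makes monounsaturated fatty acids, was 9.67, 9.37, 9.66 and 10 in young and 9.48, 9.83, 9.75 and 9.58 in old mice (-0.02 ± 0.13). Its second probe set was 9.49, 9.20, 9.55 and 9.38 in young and 9.60, 9.64, 9.67 and 9.62 in old mice, a difference of 0.23 without overlap, so the 2 readings of Scd1 differ in sign.

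**Figure D2:**
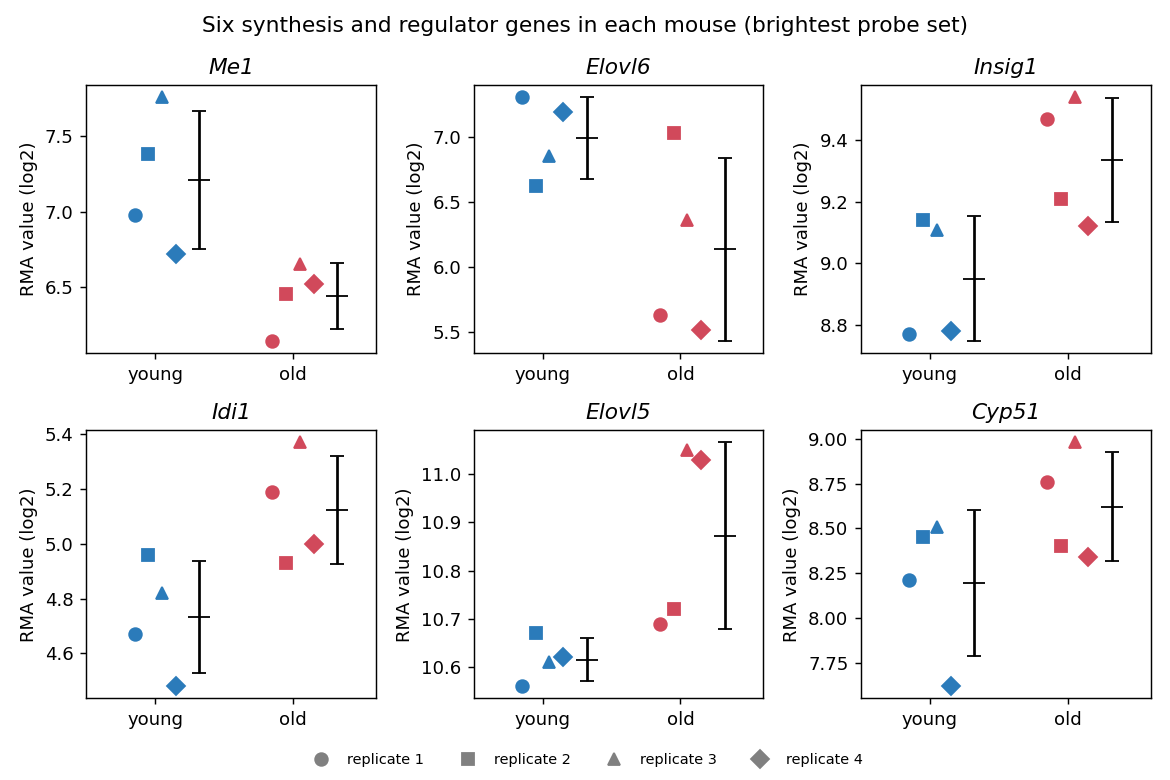
Level of Me1, Elovl6, Insig1, Idi1, Elovl5 and Cyp51 on the log2 scale (vertical axis, its own range in each panel) in each mouse, young in blue and old in red, with the marker shape giving the mouse and the black bar the mean and SD of 4 mice. Me1 and Elovl5 have no overlap between ages, and Elovl6 has 1 old mouse, at 7.03, within the young range.

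Across the probe sets, 18 of the 29 genes had several. Of the 24 further probe sets, 19 had the sign of the brightest one and 5 the opposite. Of the 11 further probe sets above the dim level, 8 had the same sign.

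**Figure D3:**
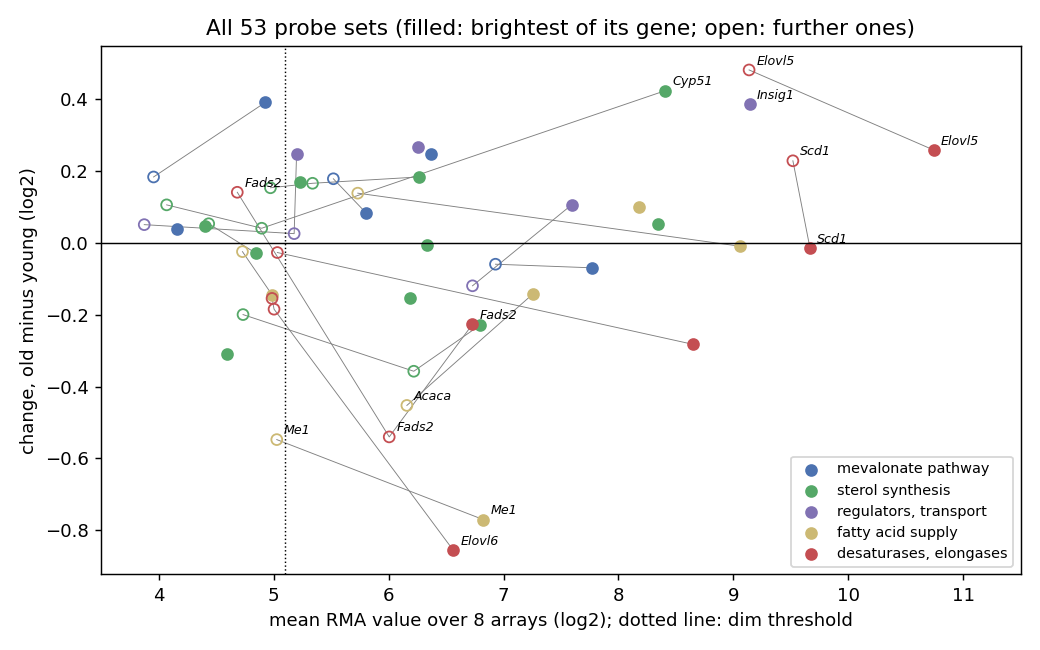
Difference between old and young mice (vertical axis, log2) against the mean value over the 8 arrays (horizontal axis, log2) for all 53 probe sets of the 29 genes, coloured by role, with grey lines joining the probe sets of a gene, filled points for the brightest and a dotted line at the dim level. Both probe sets of Me1 lie below 0 and both of Elovl5 above it, while the joined points of Scd1 and Fads2 lie on either side of 0. The Fads2 point above 0 is dim.

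The mice of 1 age also differed among themselves. Old mouse 3 was the highest of all 8 arrays for 15 of the 29 genes, against 9.67% of all genes, and for 10 of the 15 mevalonate and sterol enzymes. It was above the mean of the old mice in 27 of 29, against 45.3% of all genes and 55.3% of genes not dim in both ages. Old mouse 1 was the lowest of all for 9 of the 29, against 19.5% of all genes, 4 of them among the 5 fatty acid supply enzymes. Without old mouse 3 the median difference of the 29 genes went from 0.04 to -0.05. The median SD was 0.14 in the young and 0.20 in the old mice for the 29 genes, and 0.12 and 0.13 for all genes. The SD was larger in old mice for 16 of the 29 genes, or 55.2%, and for 55.1% of all genes.

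**Figure D4:**
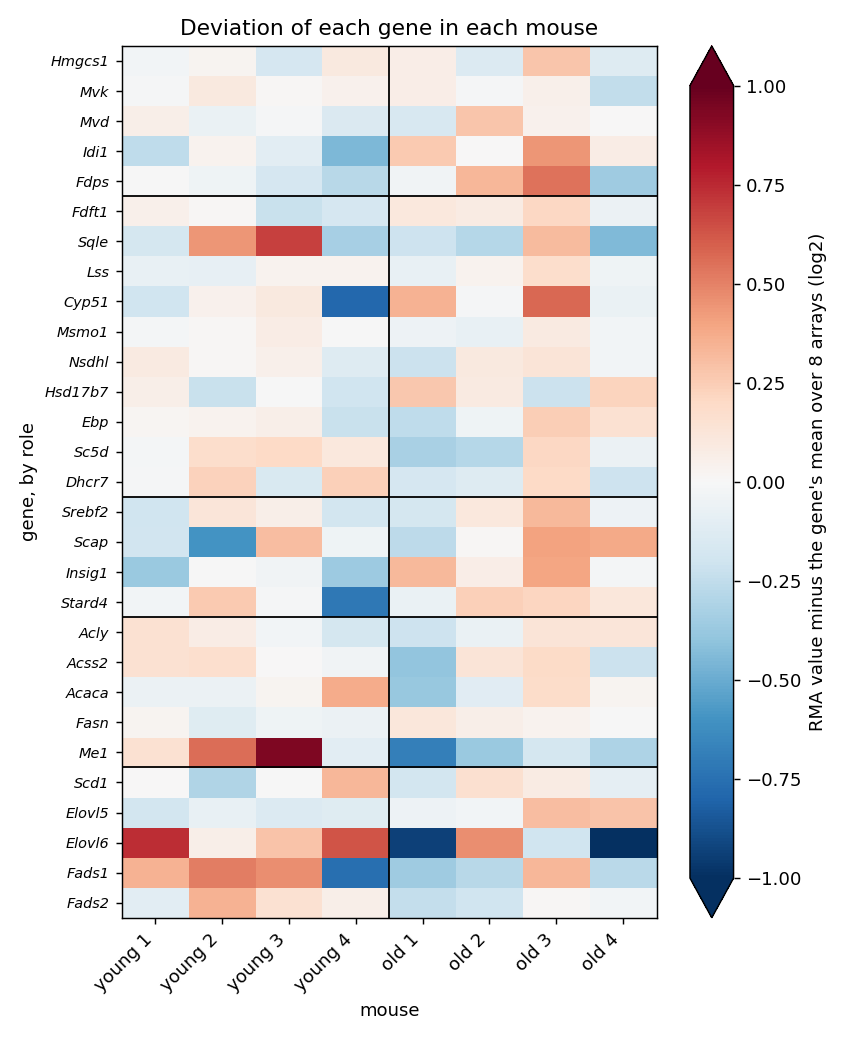
Heat map of the deviation of each of the 29 genes (rows, grouped by role) from its own mean over the 8 arrays, by mouse (columns), with red above and blue below that mean in log2 units and the darkest shades at 1 and beyond. Old mouse 3 is above the mean for 26 genes, with a median of 0.20, and old mouse 1 has a median of -0.17.

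Sums of other skin cells' markers, as measured in the same arrays, also differed between mice. The sort left out EpCam+ and CD117+ cells, and EpCam is carried by some keratinocytes and CD117 by melanocytes, among other cells. The keratinocyte sum (8 of 8 markers measured, 3 dim in both ages) was 10.54 in old mouse 3, against 8.82 to 9.51 in the other old mice and 8.45 to 9.29 in the young mice. The melanocyte and Schwann cell sum (6 of 8 measured, 3 dim) was 10.08 in old mouse 3, 9.11 to 9.68 in the other old and 7.85 to 8.25 in the young mice. The sebocyte sum (7 of 11 measured, 4 dim) was 9.67 in old mouse 3, 9.35 to 9.69 in all old and 9.04 to 9.31 in the young mice. In old mouse 3, Krt10 was at 9.13, Krt5 at 8.78, Perp at 7.40 and Krt1 at 6.38, each its highest value over the 8 arrays. Krt14 and Lor were highest in young mouse 4. No keratinocyte marker passed the limma test. Of the 8, 2 had an unadjusted p under 0.05, against 15.1% of all genes. The brightest by mean level, Krt5, was 1 of these 2, at 6.83 in young and 7.95 in old mice (adjusted p 0.221). The other of these 2, Epcam, was at 5.05 and 5.45 without overlap (adjusted p 0.0584, named after its values were seen); it passed with the prior by mean level (0.0441), with array weights (0.0176) and without old mouse 1 (0.0242), and its adjusted p reached 0.158 when another mouse was left out. Mlana, a melanocyte gene and the brightest of its list, rose by 2.88 (limma adjusted p 0.00194). The other 5 measured markers of that list (Pmel, Tyr, Tyrp1, Dct and Sox10) did not pass, with differences from -0.09 to 0.12, so its sum followed Mlana. The brightest sebocyte marker, Mgst1, was at 8.72 and 9.18 (adjusted p 0.111). Prdm1, listed with the sebocyte markers, fell by 0.71 (adjusted p 0.0377), a call lost without young mouse 1 or 2 or any 1 of the old mice (adjusted p up to 0.101) and with each array centred on its median (0.0505). The melanocyte and sebocyte sums were higher in each old mouse than in each young one. Most of the sebocyte sum came from Mgst1, at 9.39 in old mouse 3 where the sum was 9.67. Mgst1 itself overlapped between ages, and the sebocyte sums were close, 9.31 being the highest young and 9.35 the lowest old value. The part of such cells in the levels above was not tested.

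Of 61 further genes of these routes, 47 were measured. Of these, 1 rose, 0 fell and 46 did not pass (limma), with 10 at an unadjusted p under 0.05, 7 higher and 3 lower, and a median difference of -0.00; of all genes, 3.97% passed and 15.1% had an unadjusted p under 0.05. Cyp7b1, the oxysterol hydroxylase that clears side-chain oxysterols, was the gene that rose. It was 6.08, 5.52, 5.47 and 5.99 in young and 6.37, 6.62, 7.61 and 7.58 in old mice. The groups did not overlap, and the difference was 1.28 ± 0.29 (2.43-fold, limma adjusted p 0.0412). The call was lost in 7 of the 8 fits that left out a mouse, standing only without old mouse 1 (adjusted p 0.0182) and reaching 0.117 without young mouse 3, and it was also lost when each array was centred on its median (0.0583). Within the first run of title numbers the difference was 0.70, and within the second 1.87.

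By group, 0 of 4 other sterol synthesis genes, 0 of 6 other regulators of SREBP, 1 of 10 genes of sterol export, storage and oxysterol handling, 0 of 16 other fatty acid genes and 0 of 11 genes of acyl-CoA and glycerolipid synthesis passed, against 3.97% of all genes. Insig2, the second Insig protein, differed by -0.03 ± 0.12 (limma adjusted p 0.965). Nr1h3, the oxysterol receptor LXR-alpha, differed by -0.18 ± 0.12 (limma adjusted p 0.579).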

How the data were processed

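RNA from sorted dermal fibroblasts was read on one-colour Affymetrix arrays, 1 for each of 8 mice. The deposited values are log2 levels of 45141 probe sets, summarised by the authors with RMA in affy, per the submitters' processing notes; the genome build is not given in the sources used here. Of these probe sets, 28898 carried 1 gene symbol, 551 several and 15692 none in the platform annotation; the brightest single-symbol probe set stood for each of 17097 genes. All 29 symbols matched RefSeq. Old and young mice were compared with limma 3.58.1 in R 4.3.3 (lmFit, eBayes, two-sided); p-values were adjusted by Benjamini-Hochberg across every gene, and the script was tested on simulated data. The number of arrays limits the precision. Replicates are single mice.

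The genes and lists were chosen with earlier results of these data known. Named are all measured members, other route genes past the threshold plus Insig2 and Nr1h3, and markers past it or brightest in their list. A few further markers were named outside this rule, after their values were seen. Mice were collected over more than 1 day, 2 young and 2 old on each; the labels do not tie a mouse to its day, and no term for it was fitted. The 2 runs of consecutive numbers in the sample titles were used as a stand-in grouping. Alternatives covered the prior, array weights, dim genes, probe set choice, scaling, title runs, each mouse left out, and a threshold of 0.1.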

Additional observations from a re-analysis of the deposited data

Results flagged for a closer look

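In 58 groups of 4 mice, 3 held a value far from the others by Dixon's test at the 95% level; chance alone gives about 1 in 20. Young mouse 4 had an Ebp level of 8.12, where the other young mice ranged from 8.36 to 8.40. Young mouse 4 also had a Fads1 level of 7.89, where the others ranged from 8.99 to 9.16. Old mouse 3 had a Fads1 level of 8.98, where the others ranged from 8.29 to 8.38.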

How the results depend on the processing

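The 29 genes held 0 past the threshold. That count was 1 with array weights, with dim genes left out, with the mean of probe sets and at an adjusted p under 0.1 (Me1 each time), and 1 within the first run of title numbers (Fads1); leaving out each mouse in turn gave 0 to 1. All genes gave 679, from 427 (without old mouse 2) to 606 with a mouse left out, and 1082 at 0.1. The 47 further route genes gave 1: 3 with the prior by mean level, 2 with array weights, 2 with the mean of probe sets, 2 with the dimmest probe set, 0 with arrays centred on their median, 4 at 0.1, and 0 to 1 with a mouse left out. The median difference of the 29 genes ran from -0.05 to 0.06 with a mouse left out, within the spread between mice. Over 540 refits of single genes under other settings, 6 passed and 37 had the other sign, 34 of these where the difference was below its standard error. With the title runs as a replicate block, 0 of the 29 genes and 919 of all genes passed. Same-position mice correlated from 0.07 to 0.24, short of showing that they pair. All young and old mice of the same run lay in that range too, and those of different runs correlated from -0.26 to -0.02. The correlations used deviations from each age's mean, which ties these 2 ranges together, and what a run stands for was not tested. The 8 arrays, 5 dim genes and 3 unmeasured genes limit what could be seen.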
